A study of Arabidopsis thaliana with 6 samples.

Results

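Chlorophyll is made in the chloroplast from glutamate through aminolevulinic acid and a series of porphyrins, into which magnesium chelatase inserts magnesium before a methyltransferase and later enzymes complete the pigment. It is dismantled by a separate route. Chlorophyll b is reduced to chlorophyll a, magnesium is removed by the stay-green protein, the phytol tail is cut off by pheophytinase, the ring is opened by pheophorbide a oxygenase, and the colourless products are modified and stored in the vacuole. Loss of chlorophyll by this route gives senescing leaves their yellow colour, and genes of the route are well known as markers of leaf senescence.

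The genes described here were 10 loci named for their place in these routes, 7 of breakdown and 3 of synthesis. A locus counted as measured when a probe set of the Affymetrix ATH1 array named that gene alone, either in the array annotation or in the study's supplementary list of H2O2-responsive genes, which was itself drawn up from a measured response of seedlings to H2O2. Of the 10 loci, 7 were measured, each by 1 probe set, out of 14276 genes measured in all. In breakdown these were SGR1 (AT4G22920, also NYE1), PPH (AT5G13800), MES16 (AT4G16690) and NOL (AT5G04900), and in synthesis CHLI2 (AT5G45930), CHLM (AT4G25080) and GSA1 (AT5G63570). No probe set was named for PAO (AT3G44880), NYC1 (AT4G13250) or NYE2 (AT4G11910), so the opening of the ring, the partner of NOL and the paralogue of SGR1 were not analysed here.

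Wild-type Col-0 Arabidopsis plants were grown hydroponically in short days, and NaCl was added to a final concentration of 150 mM for 4 d in the salt group, whereas the control group stayed in medium without NaCl. The labels describe the material as the whole rosette at an age of 28 days, and the study describes plants of that age at the start of the treatment. There were 3 arrays per group, which the methods describe as independent biological replications. Values are log2 expression per probe set, so that a difference of 1 is a doubling, and probe sets differ in their response to the same amount of RNA, which leaves levels comparable between arrays and not between genes. In rosettes, less RNA per cell and fewer cells of a kind cannot be told apart.

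Salt and control were compared with limma across all genes, with Benjamini-Hochberg adjustment, and a gene is said to have risen or fallen where its adjusted p was under 0.05. Over all genes 11.4% rose and 12.3% fell, and in 18.9% all salt arrays lay above all control arrays and in 23.8% below. The median log2 difference over all genes was -0.03. The arrays also differed outside these genes. The 25S ribosomal RNA probe set had log2 values of 10.24, 9.05 and 9.48 in salt replicates 1 to 3, against 7.16, 7.20 and 7.84 in control replicates 1 to 3. The 5S ribosomal RNA probe set averaged 5.68 ± 0.90 in salt and 6.50 ± 0.55 in control arrays (SD, n = 3 each). The log2 difference between 3′ and 5′ probe sets, a sign of RNA quality, did not overlap between groups for actin (3.36 to 3.66 in salt and 3.11 to 3.23 in control arrays) or, in the opposite direction, for GAPDH (0.07 to 0.37 in salt and 0.39 to 0.45 in control arrays). Across probe sets, Pearson correlations of salt replicate 1 with salt replicates 2 and 3 were 0.983 and 0.980, that between salt replicates 2 and 3 was 0.988, and those between control arrays were 0.993 to 0.997. Among the listed leaf markers only RCA, for Rubisco activase, was measured (1 of 7), with log2 values of 13.20 to 13.40 in salt and 13.54 to 13.62 in control arrays. Of 7 root markers 3 were measured, and PYK10 had 8.02 to 9.02 in salt and 9.04 to 9.42 in control arrays, EXPA7 5.59 to 5.97 in salt and 5.84 to 6.06 in control arrays, and MLP329 4.06 to 4.51 in salt and 3.97 to 4.26 in control arrays. Both measured pollen markers had overlapping groups. The part of these signals in the results was not tested.

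In breakdown, 3 of the 4 measured members rose with salt and the other did not pass, whereas all 3 measured members of synthesis fell. The median log2 difference was 1.11 over the breakdown members and -0.91 over the synthesis members. The count of 3 in 4 stands against 11.4% of all genes that rose, and that of 3 in 3 against 12.3% that fell. The members, and the wider lists below, were chosen with earlier results of these data known. Such contrasts with all genes are therefore a description and not a test. The risen breakdown members SGR1, PPH and MES16 were named only through the list of H2O2-responsive genes, in which 36.9% of the 921 genes it alone named rose, against 9.65% of the 13355 genes named by the array annotation. The median log2 difference of those 921 genes was 0.29, against -0.03 for the genes named by the annotation. The list of H2O2-responsive genes holds genes raised and genes lowered by H2O2, and the 36.9% covers both. It was used for names alone, so the direction of SGR1, PPH and MES16 in it was not considered. All synthesis members, and NOL, were named by the annotation.

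NOL encodes a subunit of chlorophyll b reductase, which starts the route by turning chlorophyll b towards chlorophyll a. Its log2 values were 8.62, 9.29 and 9.34 in salt replicates 1 to 3, against 9.63, 9.64 and 9.47 in control replicates 1 to 3. The groups did not overlap, but the nearest arrays lay only 0.13 apart and salt replicate 1 lay well below the other salt arrays. The mean difference was -0.50 (SE 0.19, 95% interval -0.95 to -0.04, adjusted p = 0.11 from limma), and without salt replicate 1 it was -0.27. NOL was the measured breakdown member without a higher mean in salt.

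SGR1 encodes the stay-green protein that takes magnesium out of chlorophyll a. The SGR1 probe set read 9.76, 9.80 and 10.18 in salt arrays, against 8.75, 8.50 and 8.46 in control arrays. Every salt array was above every control array, with 1.01 between the nearest values. SGR1 averaged 9.91 ± 0.23 in salt and 8.57 ± 0.16 in control (SD, n = 3 each), a 2.54-fold rise on the linear scale, with a log2 difference of 1.34 (SE 0.14, adjusted p = 0.0015 from limma).

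PPH encodes pheophytinase, which acts directly after SGR1 and removes the phytol tail from pheophytin. In salt arrays PPH had 10.04, 10.03 and 10.02, against 9.17, 9.32 and 8.96 in control arrays. The salt arrays were nearly equal, and all lay above the control arrays. PPH averaged 10.03 ± 0.01 in salt and 9.15 ± 0.18 in control (SD, n = 3 each), and rose by 0.88 on the log2 scale (SE 0.11, adjusted p = 0.0024 from limma), or 1.84-fold.

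MES16 encodes a methyl esterase that acts late, on products formed after the ring has been opened. It gave 11.28, 11.02 and 10.80 in salt arrays, against 8.30, 8.15 and 7.96 in control arrays. The groups lay 2.50 apart at their nearest values, the widest separation of the 7 measured members. The mean was 11.03 ± 0.24 in salt and 8.14 ± 0.17 in control (SD, n = 3 each). MES16 rose 7.45-fold, a log2 difference of 2.90 (SE 0.15, adjusted p = 0.000189 from limma), and 0.434% of all genes had a larger difference. The share of genes above SGR1 was 3.55%, and above PPH 6.29%.

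**Figure D1:**
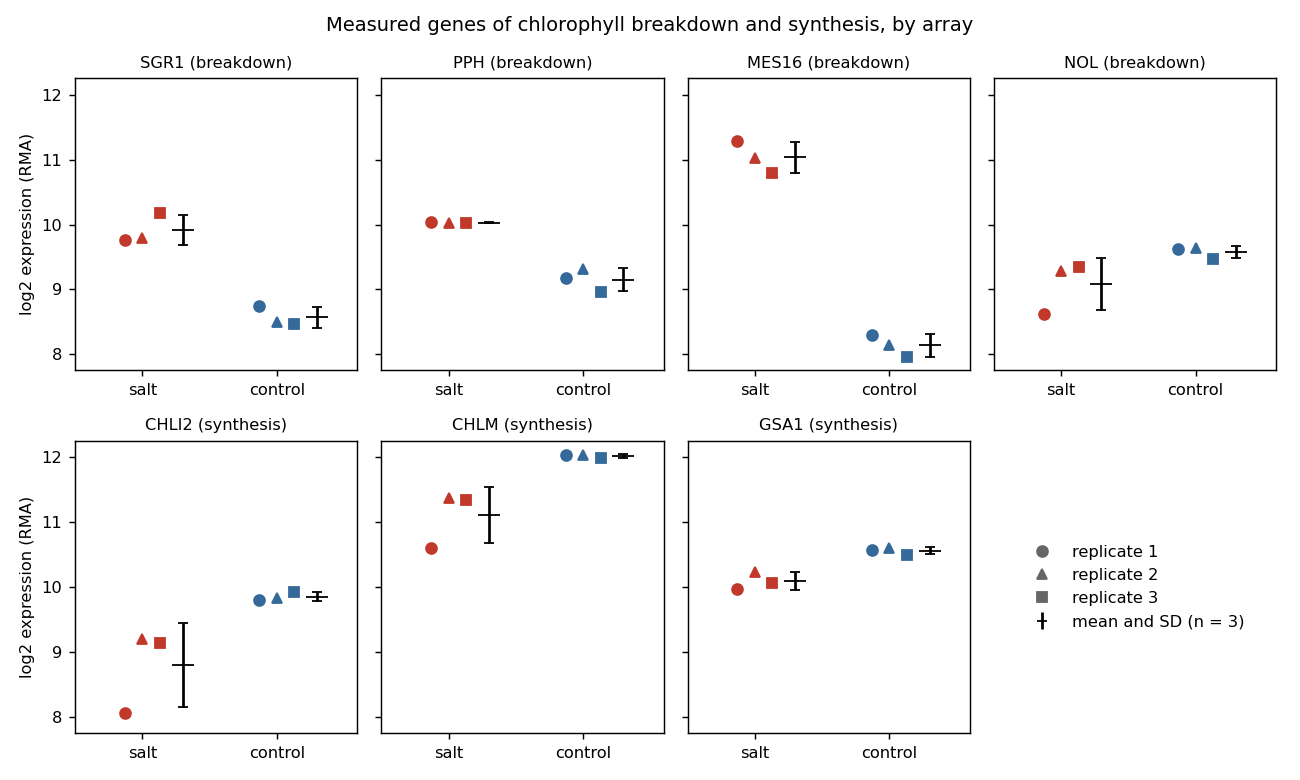
Log2 expression (RMA, y axis) of the 7 measured members in 3 salt arrays (red) and 3 control arrays (blue), with the replicate shown by the symbol and the mean and SD in black; levels are not comparable between panels. Salt arrays lie above control arrays for SGR1, PPH and MES16 and below them for NOL, CHLI2, CHLM and GSA1, with salt replicate 1 lowest in those 4 genes.

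In synthesis, GSA1 encodes a form of the aminomutase that forms aminolevulinic acid, the precursor of all plant porphyrins. The listed paralogue GSA2 had no named probe set. Log2 values of GSA1 were 9.98, 10.24 and 10.07 in salt arrays, against 10.57, 10.61 and 10.50 in control arrays. All salt arrays were below all control arrays, by at least 0.26. GSA1 averaged 10.10 ± 0.13 in salt and 10.56 ± 0.056 in control (SD, n = 3 each), a log2 difference of -0.46 (SE 0.095, adjusted p = 0.015 from limma), or 1.38-fold lower.

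CHLI2, whose listed paralogue CHLI1 had no named probe set, encodes a form of the I subunit of magnesium chelatase. At that enzyme the path to chlorophyll parts from that to heme. For CHLI2, salt replicates 1 to 3 had 8.06, 9.20 and 9.14, against 9.80, 9.83 and 9.93 in control replicates 1 to 3. Salt replicate 1 lay more than 1 log2 unit below the other salt arrays, which were themselves below all control arrays. CHLI2 averaged 8.80 ± 0.64 in salt and 9.85 ± 0.068 in control (SD, n = 3 each), with a log2 difference of -1.05 (SE 0.29, 95% interval -1.74 to -0.37, adjusted p = 0.039 from limma). This was 2.08-fold lower in salt, and without salt replicate 1 the log2 difference was -0.68.

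CHLM encodes the methyltransferase that acts on the product of magnesium chelatase. CHLM read 10.61, 11.38 and 11.35 in salt arrays, against 12.03, 12.04 and 11.99 in control arrays. The control arrays agreed closely, and salt replicate 1 was again the lowest array. Means were 11.11 ± 0.44 in salt and 12.02 ± 0.026 in control (SD, n = 3 each), and the log2 difference was -0.91 (SE 0.20, adjusted p = 0.020 from limma), or 1.87-fold lower in salt, and -0.66 without salt replicate 1.

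The medians of the routes differed in how far they varied between salt arrays. Relative to each gene's control mean, the median of the 4 breakdown members was 1.04, 1.06 and 1.24 higher on the log2 scale in salt replicates 1 to 3. The median of the 3 synthesis members was -1.41, -0.64 and -0.67 in the same arrays. The gap between the medians of the routes was therefore 2.45 in salt replicate 1, 1.70 in salt replicate 2 and 1.91 in salt replicate 3. Not all members followed the median of their route. NOL of breakdown had -0.96, -0.29 and -0.24 in salt replicates 1 to 3, and GSA1 of synthesis -0.58, -0.32 and -0.49. These medians are given as a description, without a test.

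All calls of SGR1, PPH and MES16 held when any array was left out, with a highest adjusted p of 0.0122, 0.0176 and 0.00216 from limma in that order. Those of CHLI2 and CHLM did not pass without control replicate 1, 2 or 3 (adjusted p up to 0.116 and 0.0772 from limma), and that of GSA1 did not pass without control replicate 1 or 2 (up to 0.0713). With an unmoderated test no synthesis member passed. The log2 differences stayed negative in all of these settings, from -1.25 to -0.68 for CHLI2, -1.04 to -0.66 for CHLM and -0.54 to -0.41 for GSA1. A 2-fold difference, the study's criterion, was reached together with the adjusted p by MES16 and SGR1 among genes that rose and by CHLI2 among those that fell, against 4.93% and 2.46% of all genes.

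**Figure D2:**
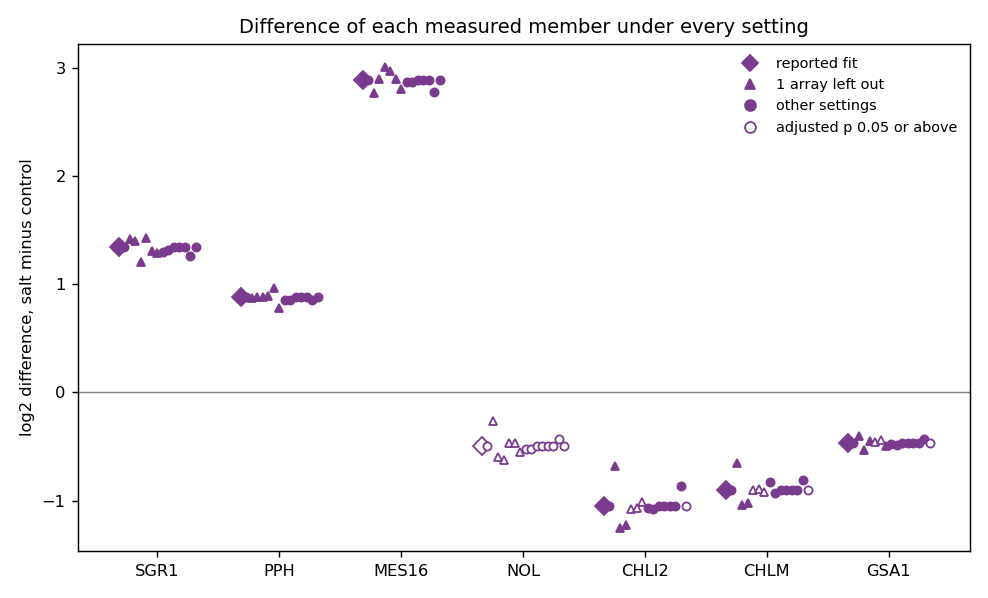
Log2 difference of salt minus control (y axis) for each measured member (x axis) in the reported fit (diamonds), with 1 array left out (triangles) and under other settings (circles); open symbols mark an adjusted p of 0.05 or above. MES16, SGR1 and PPH stay above 0 and filled throughout, NOL is an open symbol in each setting, and CHLI2, CHLM and GSA1 stay below 0 with some open symbols.

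A wider list of 22 genes of breakdown and its control, export of its products and use of phytol held 9 measured genes, of which 5 rose, 1 fell and 3 did not pass, with a median log2 difference of 0.88. Over all genes 11.4% rose and 12.3% fell, and 4 of the 9 were named through the list of H2O2-responsive genes, in which 36.9% rose. Of the 5 named by the annotation, 1 rose and 1 fell. Besides SGR1, PPH and MES16, the risen genes were ABCC2 and AT4G17840. ABCC2 encodes an ABC transporter of the vacuolar membrane that can carry chlorophyll catabolites, and had 9.02, 8.49 and 8.92 in salt arrays, against 8.02, 7.83 and 7.65 in control arrays. It rose by 0.98 (SE 0.16, adjusted p = 0.0079 from limma), a call that did not pass with an unmoderated test (adjusted p = 0.0679). AT4G17840 was listed by role as BCM2, a name that the gene annotation used here does not give. It had 11.32, 11.15 and 10.96 in salt arrays, against 10.05, 10.01 and 9.76 in control arrays. The rise of AT4G17840 was 1.20 (SE 0.13, adjusted p = 0.0015 from limma). ABCC2 was named through the list of H2O2-responsive genes and AT4G17840 by the annotation. Since the list also holds loci of the control of the route, the rise of AT4G17840 is not counted here as a rise of a breakdown enzyme.

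AT1G44000 was the gene of the wider breakdown list that fell, in the opposite direction to SGR1. It was listed by role as SGRL, a name that the gene annotation used here does not give. Its values were 9.66, 10.47 and 10.02 in salt arrays, against 11.12, 11.08 and 10.83 in control arrays, and all salt arrays were below all control arrays. The log2 difference was -0.96 (SE 0.20, adjusted p = 0.017 from limma), and the call did not pass without control replicate 1 or 2. AT2G35260 had -0.21 (adjusted p = 0.093 from limma) and AT1G78620 -0.19 (adjusted p = 0.17 from limma). In both, all salt arrays lay below all control arrays, as in 23.8% of all genes. The nearest arrays were only 0.12 and 0.04 apart in that order. Together with NOL, AT2G35260 and AT1G78620 were the measured genes of the wider breakdown list that did not pass.

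The wider list of synthesis had 34 genes, of which 14 were measured, all named by the annotation. With salt 8 of them fell, 1 rose and 5 did not pass, and the median log2 difference was -0.57, set against 12.3% of all genes that fell and 11.4% that rose. In 11 of the 14 all salt arrays were below all control arrays, set against 23.8% of all genes, and in 1 all were above, set against 18.9%. Besides CHLI2, CHLM and GSA1, those that fell were HEME2, HEME1, LIL3:1, HEMF2 and LIL3:2.

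HEME1 and HEME2 encode uroporphyrinogen decarboxylases, which act before the routes to chlorophyll and heme divide. HEME2 had the largest fall of the wider list, with 9.31, 10.24 and 9.95 in salt arrays, against 11.00, 10.95 and 11.03 in control arrays, and a log2 difference of -1.16 (SE 0.22, adjusted p = 0.012 from limma). HEME1 had 8.89, 9.84 and 9.58 in salt arrays, against 10.42, 10.47 and 10.44 in control arrays, a difference of -1.01 (SE 0.23, adjusted p = 0.020 from limma). Both had their lowest value in salt replicate 1 and control values that lay close together.

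HEMF2, for a coproporphyrinogen oxidase, stands at the next step, and had 6.20, 6.47 and 6.54 in salt arrays, against 7.12, 7.01 and 6.90 in control arrays. It fell by 0.61 on the log2 scale (SE 0.12, adjusted p = 0.012 from limma). LIL3:1 and LIL3:2 encode light-harvesting-like proteins that hold geranylgeranyl reductase, the enzyme that makes the phytol tail, at the thylakoid. LIL3:1 fell by 0.79 (SE 0.13, adjusted p = 0.0068 from limma) and LIL3:2 by 0.57 (SE 0.092, adjusted p = 0.0073 from limma), and both passed with any array left out. The call of HEME1 did not pass without control replicate 1, 2 or 3, and those of HEME2 and HEMF2 did not pass without control replicate 1 or 2.

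The 5 synthesis genes that did not pass included PORB and AT1G74470 of the late steps and HEMB2 of an early step. PORB, for a light-dependent protochlorophyllide oxidoreductase, had 11.18, 11.98 and 11.61 in salt arrays, against 12.18, 12.08 and 12.24 in control arrays, with -0.58 (SE 0.19, adjusted p = 0.070 from limma). It passed without salt replicate 2 and with median centring. AT1G74470, annotated as geranylgeranyl reductase, had -0.42 (adjusted p = 0.086 from limma) and HEMB2 -0.27 (adjusted p = 0.16 from limma). HEMB1 at 0.00 and HEMA3 at 0.10, both named after their values were seen, had overlapping groups. HEMA3 lay at 4.36 to 4.67 in all arrays, under the 30th percentile of mean signal (5.45), so that a change could be missed.

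HEMA2 was the measured synthesis gene that rose. It encodes a form of glutamyl-tRNA reductase, the entry enzyme of the pathway, whose main leaf form HEMA1 had no named probe set. The values were 8.20, 7.67 and 6.84 in salt arrays, against 6.25, 6.09 and 6.38 in control arrays, so that the salt arrays were spread widely but all lay above the control arrays. The log2 difference was 1.33 (SE 0.31, 95% interval 0.59 to 2.07, adjusted p = 0.024 from limma). The call did not pass without salt replicate 2 or without control replicate 1, 2 or 3 (adjusted p up to 0.093), and the difference was 1.02 without salt replicate 1 and 1.70 without salt replicate 3.

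**Figure D3:**
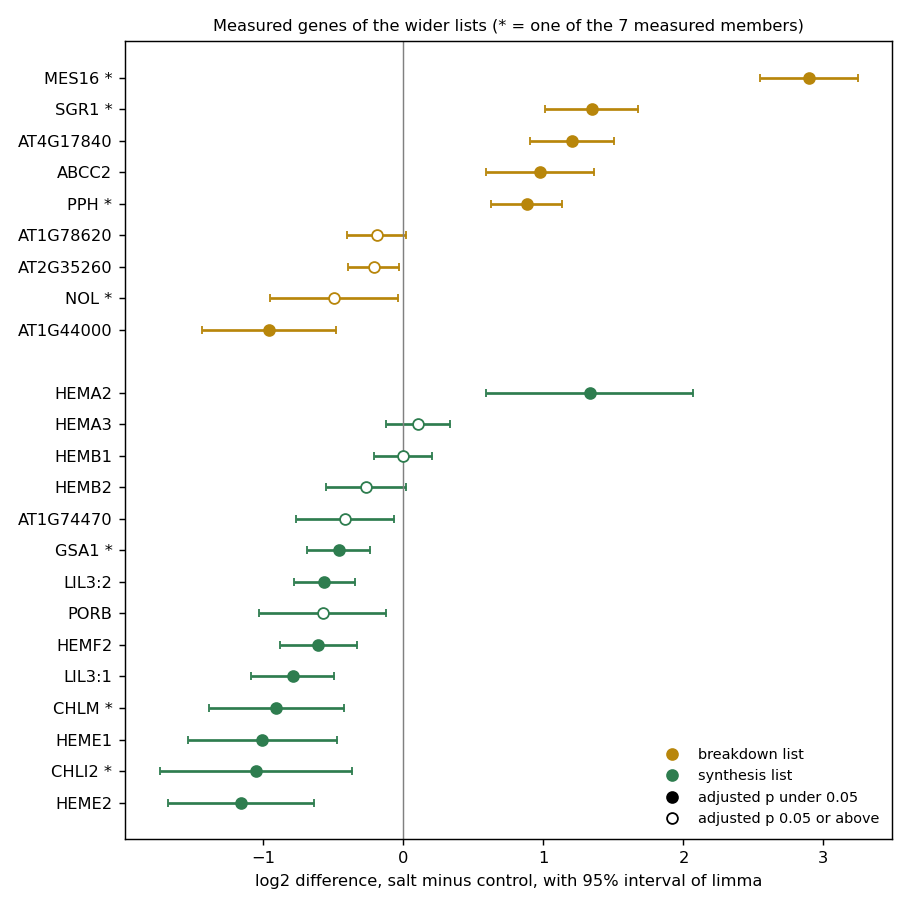
Log2 difference of salt minus control (x axis) with its 95% interval from limma for the 9 measured genes of the wider breakdown list and the 14 of the wider synthesis list, ordered by size. Filled points passed the adjusted p and asterisks mark the 7 members. Of the breakdown list 5 genes, AT4G17840 among them, lie to the right and passed, and 8 synthesis genes lie to the left and passed. HEMA2 and AT1G44000 passed in the opposite direction to the rest of their lists that passed.

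The falls in synthesis shared their lowest array. In all 8 synthesis genes that fell, salt replicate 1 was the lowest of the salt arrays, as it was in 68.6% of the 1750 genes that fell over the whole array. The SD of the salt arrays was above that of the control arrays in all 8 of these genes, with a median SD of 0.33 in salt and 0.048 in control, and in 85.0% of all genes that fell. Of the 5 risen genes of the wider breakdown list, 4 were highest in salt replicate 1, as were 67.0% of all genes that rose, and the exception was SGR1 with its highest value in salt replicate 3. Salt replicate 1 was also the array with the highest 25S ribosomal RNA signal, and the part of that signal in the falls was not tested. Without salt replicate 1, all 3 synthesis members and all 3 risen breakdown members still passed, and the median log2 difference was -0.66 for the synthesis members and 1.15 for the breakdown members.

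**Figure D4:**
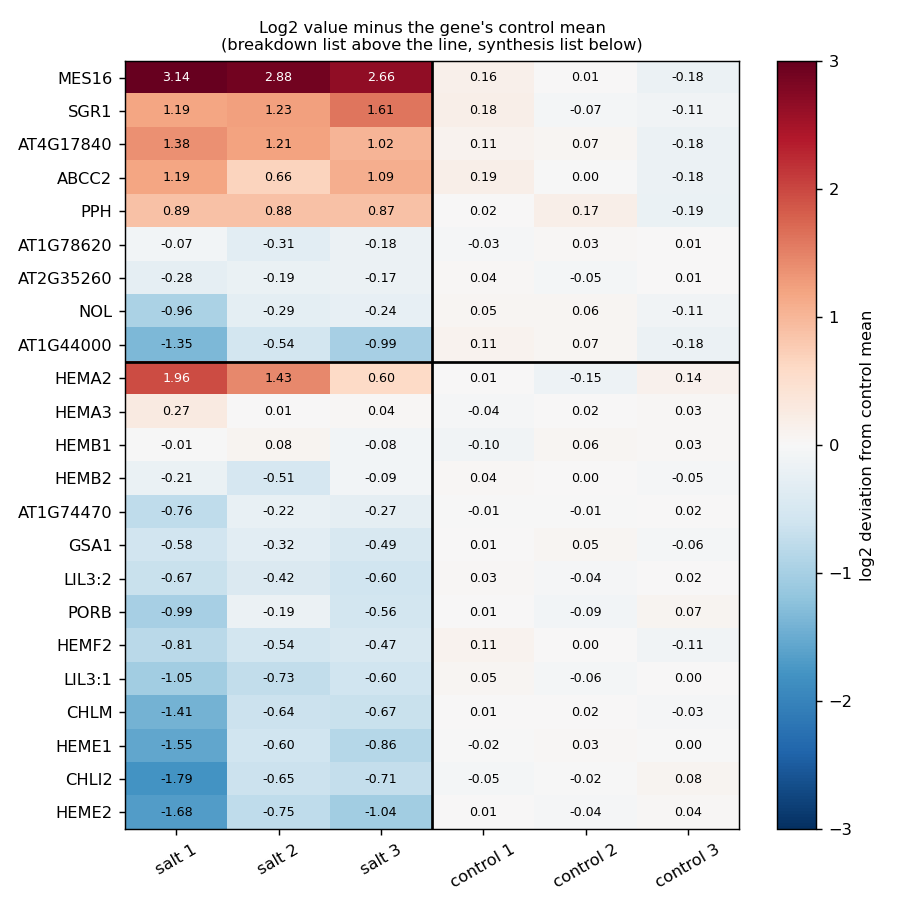
Log2 value minus the gene's mean over control arrays, for each measured gene of the wider breakdown list (above the line) and synthesis list (below it) in 3 salt and 3 control arrays; red is above and blue below the control mean. In salt replicate 1 the darkest blue is in CHLI2 (-1.79), followed by HEME2, HEME1 and CHLM (-1.41), whereas PPH is nearly the same in the salt arrays (0.87 to 0.89).

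Of 21 listed regulators of chlorophyll genes 3 were measured. ORE1 (ANAC092), a NAC factor that promotes leaf senescence, had 9.45, 8.86 and 8.49 in salt arrays, against 6.21, 6.03 and 6.38 in control arrays, and a log2 difference of 2.73 (SE 0.24, adjusted p = 0.00079 from limma). ORE1 was named only through the list of H2O2-responsive genes, in which 36.9% rose. EIN3, an ethylene signalling factor, had 0.19 (adjusted p = 0.34 from limma) and EEL, a bZIP factor, 0.11 (adjusted p = 0.65 from limma), both named by the annotation and with overlapping groups. EEL lay at 4.18 to 4.72 in all arrays, under the 30th percentile of mean signal (5.45), so that a change could be missed. Of 9 listed genes of the heme and siroheme branches only SIRB was measured, a sirohydrochlorin ferrochelatase gene with -0.21 (adjusted p = 0.24 from limma).

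Genes with the most similar pattern were found by the root mean square difference over the 6 arrays, after each gene was centred on its own mean. Nearest to SGR1 were the peroxidase gene PRX52 (0.097), AT1G79520 (0.098) and DELTA-OAT (0.11), for ornithine aminotransferase. Nearest to MES16 were SBT3.5 (0.089), a subtilase gene, AT5G61820 (0.12) and ATAF1 (0.13), a NAC factor gene. Nearest to CHLI2 were AT5G27560 (0.073), AT1G80280 (0.080) and UPP (0.081), for uracil phosphoribosyltransferase, and nearest to CHLM were AT5G08650 (0.029), AT1G29070 (0.030) and AT3G06980 (0.041). These are distances in log2 units among 14276 genes and carry no test.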

How the data were processed

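Total RNA of 6 rosette samples was hybridized to Affymetrix ATH1 arrays, 3 per group. The authors normalized the arrays by robust multiarray averaging and deposited log2 values per probe set, with 2 decimals. The methods name Bioconductor, affy, affyPL and limma, and the labels list GCRMA beside RMA. Versions and the use of GCRMA are not given in the sources used here. No array was dropped and no value imputed.

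Control probe sets were set aside, which left 22746. The array annotation gave 1 gene for 13513 of these and several for 503, which stayed unnamed. A further 921 took their locus from the study's list of H2O2-responsive genes alone (1995 rows read), and 7809 had no name. Of 1072 probe sets named by both, 1066 had the same locus. Symbols came from a RefSeq gene table (TAIR10.1), used for names alone. The probe set with the highest mean stood for each gene, which gave 14276 genes.

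Salt minus control was fitted with limma 3.58.1 (lmFit, eBayes, no pairing) in R 4.3.3, with p-values adjusted over all genes. The fit was tested on simulated data. Alternatives were a fit with the replicate number blocked, fits without each array in turn, median centring or quantile normalization, genes above the 30th percentile of mean signal (5.45), the mean of all probe sets of a gene, annotation names alone, trend and robust estimation, array weights and a 2-fold criterion. An unmoderated test and all alternatives for the wider lists were chosen after seeing the data. The members and lists were chosen with earlier results of these data known. Genes named are the measured members, the listed genes that passed, the 3 largest of each list that did not (all in short lists), and the 3 genes nearest in pattern to SGR1, MES16, CHLI2 and CHLM. Figures were drawn with matplotlib 3.10.9. Arrays carry no counts, so that precision is limited by their number. For a single gene the smallest two-sided p of an exact permutation test on 3 against 3 is 0.1.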

Additional observations from a re-analysis of the deposited data

Results flagged for a closer look

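A control probe set outside the comparison of genes differed between the groups. The 25S ribosomal RNA signal was 2.19 higher in salt than in control arrays on the log2 scale, with means of 9.59 ± 0.60 in salt and 7.40 ± 0.38 in control (SD, n = 3 each).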

How the results depend on the processing

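Among the 4 measured breakdown members 3 rose under every alternative of the test that kept them, and 2 (MES16 and SGR1) with the 2-fold criterion. With annotation names alone SGR1, PPH and MES16 have no named probe set. NOL, the remaining breakdown member, did not pass there (adjusted p = 0.107 from limma). The count of synthesis members that fell was 3 under the replicate block, quantile normalization, median centring, the signal filter, the mean of probe sets, annotation names alone, trend and robust estimation and array weights. It was 1 with the 2-fold criterion, 0 with the unmoderated test, and 0 to 3 with 1 array left out. In the wider breakdown list 3 genes rose with the 2-fold criterion and 4 with the unmoderated test, where ABCC2 did not pass. With annotation names alone AT4G17840 rose and AT1G44000 fell in that list (adjusted p = 0.0015 and 0.016 from limma). The count that fell in it was 0 with the 2-fold criterion or the unmoderated test, and 0 to 1 with 1 array left out. In the wider synthesis list 3 fell with the 2-fold criterion, 1 with the unmoderated test and 2 to 9 with 1 array left out, and 0 to 1 rose with 1 array left out and 0 with the unmoderated test. Over all genes 704 rose and 351 fell with the 2-fold criterion, and 581 and 333 with the unmoderated test. With 1 salt array left out 1517 to 1701 rose and 1613 to 1891 fell. With 1 control array left out 837 to 1194 rose and 492 to 917 fell. The cause of these changes was not tested. No called difference of a listed gene changed sign under the alternatives run.

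Same-numbered salt and control arrays deviated from their group means with correlations of -0.12, 0.052 and -0.14 across genes. Arrays with different numbers had -0.10 to 0.16. Centring within groups of 3 ties these values together, so they cannot show whether the arrays were paired. The labels give only a shared number. With the replicate block 1398 genes rose and 1345 fell, and every call of the 7 measured members was kept. Only 1 probe set measured each member and the arrays carry no detection calls, which limits what can be said of genes without a named probe set.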
